A study of Oryza sativa Japonica Group with 41 samples.

Results

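Acetylation of lysine 9 of histone H3 (H3K9ac) was profiled by ChIP-seq in rice leaves at ZT18 and at ZT0, and the regions that differed between the 2 times are described. The 4 peak lists used, 2 libraries of each time, were among 27 in the series. The peaks of the 4 libraries were merged wherever they overlapped by at least 1 bp, which gave 25477 regions on the 12 rice chromosomes. Of these, 19651 regions (77.1%) held a peak in all 4 libraries and could be tested. Regions with more of the mark at ZT18 (rising, 755), regions with less of it (falling, 420), regions with a peak in both ZT18 libraries only (appearing, 479) and regions with a peak in both ZT0 libraries only (vanishing, 299) are described in turn.

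The ZT18 group was 2 libraries of untreated leaves of Oryza sativa Japonica, cultivar DongJin, labelled as 30 days old and taken at ZT18. The ZT0 group was 2 libraries of the same cultivar, tissue, labelled age and lack of treatment, taken at ZT0. ZT counts hours from lights on. Plants were grown under 16 h of light and 8 h of dark, so that under this schedule ZT0 is the start of the light period and ZT18 lies in the dark period. All 4 libraries were made with the same lot of an anti-H3K9ac antibody. The whole series holds other libraries of 12-day-old seedlings and of ZT6 and ZT12 leaves. Those of ZT6 and ZT12 are used below because they played no part in choosing the regions. Libraries of 12-day-old seedlings are also used. They are untreated controls for H3K9ac, butyryllysine and crotonyllysine, and H3K9ac after 48 h of darkness or 6 h of submergence. An input library, labelled as 12 days old, is used as well. The labels do not say whether the replicates came from separate plants, so the p-values measure the spread between these libraries, which may be technical. Whole leaves were used, and a change in the mark per cell cannot be told apart from a change in the share of cells that carry it.

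H3K9ac is written by histone acetyltransferases and removed by histone deacetylases. It neutralises the charge of the histone tail, lies mainly over the first nucleosomes of transcribed genes just downstream of the start site, and is a mark of active promoters in plants as in animals. In leaves, the circadian clock and light switch many genes on and off in the course of a day, photosynthesis genes and clock genes among them, and H3K9ac at such genes is known to follow their transcription. Regions are named below by their position in the MSU7.0 build, because no gene annotation of that build was used here, and the leaf label could not be checked against marker genes for the same reason.

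Depth differed between libraries, and in opposite directions in the 2 replicate numbers. The ZT18 libraries held 16232431 (replicate 1) and 5914314 (replicate 2) tags kept for peak calling, and the ZT0 libraries 9836714 and 16212445. ZT18 replicate 2 was thus the shallow library: 60.3% of its tags had been removed as repeats of a position, against 34.7% to 43.8% in the other 3 libraries. It had 21585 peaks over 26315529 bp, where ZT18 replicate 1 had 24441 over 34947438 bp and the ZT0 libraries had 21916 over 29639065 bp (replicate 1) and 23014 over 35063112 bp (replicate 2). Its median peak held 112 tags. The share of tags lying in peaks ranged from 49.1% to 53.8% over the 4 libraries. Across the 19651 regions, the log2 ratio between libraries had an SD of 0.33 between the ZT18 replicates and 0.27 between the ZT0 replicates. Between a ZT18 and a ZT0 library this SD was 0.44 to 0.51, larger than within either time. Only 123 of the 19651 regions (0.626%) overlapped a peak of the input library of the series. That library held only 652 peaks and was labelled as 12 days old, so it is no matched background for these leaves.

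Most H3K9ac regions did not pass a test for a difference between ZT18 and ZT0. With edgeR's quasi-likelihood test on the summed tags of each region and Benjamini-Hochberg adjustment, 1687 of the 19651 regions (8.58%) passed an adjusted p of 0.05. Of these, 1061 (5.4% of the regions tested) were higher at ZT18 and 626 (3.19%) were lower. A rule adapted from the study, a difference above 1.5-fold in both replicate pairs, was also applied. The study used it on genes, scaled by gene length and mapped reads, and here it was used on merged regions and on normalised tags, the tags of a region per 1000000 tags kept in its library. By this rule 926 regions (4.71%) were higher at ZT18 and 454 (2.31%) were lower, and 143 regions passed 1.5-fold in opposite directions in the 2 pairs. The excess of higher regions turned round in the second pair alone, where 1658 were higher and 1869 lower. It also turned round with the aligned reads of each library as the denominator, where 62 regions were higher and 156 lower. Those reads were counted before repeats of a position were removed, and the tags after it. The pairs go by replicate number only, which the labels do not tie to a shared plant or day. The regions that passed both criteria in one direction are called rising (755, 3.84%) and falling (420, 2.14%).

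**Figure D1:**
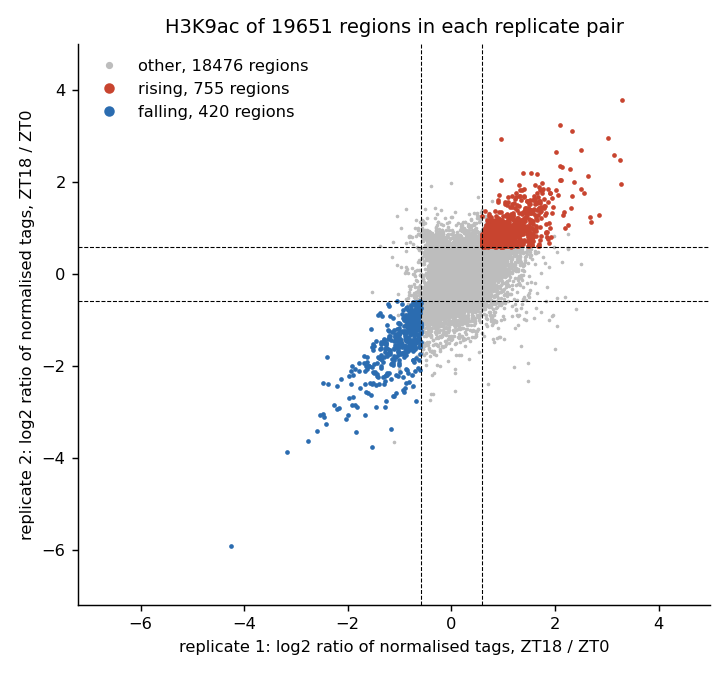
Each point is 1 of the 19651 regions that could be tested. The x axis gives the log2 ratio of normalised tags (ZT18 over ZT0) in replicate 1 and the y axis the same in replicate 2, with dashed lines at 1.5-fold. The 755 rising regions lie in the upper right corner and the 420 falling regions in the lower left, and a single falling region stands far below the rest.

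Rising regions had a median log2 fold change of 0.96 (quartiles 0.78 and 1.20), that is 1.94-fold, and ranged up to 3.54. Falling regions had a median of −1.21 (quartiles −1.54 and −0.95) and ranged down to −4.84. The median over all regions tested was 0.01. More falling than rising regions lay beyond 4-fold, 39 against 18, although falling regions were fewer. The median rising region held 25.5 and 24.5 normalised tags at ZT18, against 12.0 and 12.6 at ZT0. The median falling region held 18.6 and 16.9 normalised tags at ZT18, against 38.6 and 49.7 at ZT0. The remaining 18476 regions held 21.1 and 20.0 at ZT18 and 19.9 and 21.4 at ZT0 in the median. These levels are a description only, since the same tags chose the regions.

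These calls rest on how the libraries were scaled and on single libraries. When the aligned reads the study lists for each library served as library sizes, 3 regions were called, all lower at ZT18. The median of all regions moved to −0.16 on the log2 scale, while all 755 rising and all 420 falling regions kept the sign of their fold change. The rising regions had log2 fold changes of 0.58 or more and the falling ones of −0.62 or less. A shift of this size could hardly turn their signs, so the kept signs say little. The aligned reads do not match the tags, which were counted after repeats of a position were removed. That step took 60.3% of the tags of ZT18 replicate 2. With the tags kept for peak calling as library sizes, 1531 regions were called (995 higher, 536 lower). Without the shallow ZT18 replicate 2, 1295 regions were called (841 higher, 454 lower), among them 565 of the 755 rising and 366 of the 420 falling regions. Without ZT18 replicate 1, the count fell to 1042 (536 higher, 506 lower).

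The largest rise was at chr8:27537872-27541670, a region of 3799 bp. It held 1008 and 483 tags at ZT18, against 62 and 96 at ZT0. Scaled to library depth, this was 62.1 and 81.7 normalised tags at ZT18, against 6.30 and 5.92 at ZT0, a log2 fold change of 3.54 (SE 0.20; edgeR adjusted p = 0.00075). Its called length was 3799 and 3543 bp at ZT18, against 815 and 983 bp at ZT0. At ZT0 it was thus a short peak and at ZT18 a broad one. The summits were not at the same place, with 1974 bp between those of ZT18 replicate 1 and ZT0 replicate 2.

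The next largest rise, at chr8:25973040-25977691, was 3.06 (SE 0.25; edgeR adjusted p = 0.0011), with 50.6 and 32.6 normalised tags at ZT18, against 6.20 and 4.19 at ZT0. At chr8:27315662-27318122 the values were 32.0 and 39.2 at ZT18, against 3.66 and 6.54 at ZT0, a log2 fold change of 2.71. The region at chr8:15988872-15991916 had the same fold change to 2 decimals, 2.71, with 38.5 and 48.9 normalised tags at ZT18, against 7.62 and 5.67 at ZT0. In each of these regions both ZT18 libraries stood far above both ZT0 libraries.

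The fifth largest rise, at chr8:24475069-24479385, had 52.2 and 61.4 normalised tags at ZT18, against 5.49 and 11.04 at ZT0 (log2 fold change 2.71). Thus 5 of the 10 largest rises were on chromosome 8, while the share of rising regions on that chromosome, 3.85%, was close to the 3.84% over all chromosomes. The other 5 lay on chromosomes 10, 1, 3, 7 and 6.

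At chr10:16083402-16086860 the mark stood at 47.9 and 45.8 normalised tags at ZT18, against 11.2 and 4.87 at ZT0 (log2 fold change 2.60). At chr1:1214399-1216854 it stood at 33.9 and 40.9 at ZT18, against 6.00 and 6.35 at ZT0 (2.56). The 2 ZT0 libraries differed by more than the ZT18 libraries in the first of these and were nearly equal in the second.

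The last 3 of the 10 were chr3:31694774-31697112 with 32.3 and 23.2 normalised tags at ZT18, against 5.18 and 5.30 at ZT0 (2.41). In chr7:26053266-26056313 there were 47.5 and 56.0 at ZT18, against 4.88 and 14.4 at ZT0 (2.33). In chr6:21372131-21374558 there were 51.3 and 57.0 at ZT18, against 12.7 and 9.07 at ZT0 (2.31). Over the 10 regions the edgeR adjusted p ranged from 0.00075 to 0.0081.

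The largest fall was at chr8:4607414-4614935, the widest of the named regions at 7522 bp. It held 160 and 22 tags at ZT18, against 1850 and 3680 at ZT0, or 9.86 and 3.72 normalised tags at ZT18, against 188 and 227 at ZT0. The log2 fold change was −4.84 (SE 0.38; edgeR adjusted p = 0.0011). The called length was 1367 and 503 bp at ZT18, against 7097 and 7522 bp at ZT0. What was a domain of several kilobases at the start of the light period was a remnant in the dark.

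This region stood in the longest run of neighbouring falling regions, 4 tested regions in a row over 36806 bp (chr8:4595161-4631966). The 3 other members changed by −1.70, −1.84 and −1.95. The first of them, chr8:4595161-4597823, had 12.4 and 14.9 normalised tags at ZT18, against 32.1 and 53.5 at ZT0. The region between it and the largest fall, chr8:4602261-4605609, had 16.1 and 16.1 at ZT18, against 48.9 and 64.5 at ZT0. The last, chr8:4630170-4631966, had 7.08 and 5.58 at ZT18, against 20.3 and 28.9 at ZT0. All 4 regions fell, as the definition of a run requires, and the widest fell by far the most.

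The second largest fall, at chr4:32805858-32809400, left 8.38 and 6.43 normalised tags at ZT18, against 75.2 and 95.0 at ZT0 (log2 fold change −3.50, SE 0.19; edgeR adjusted p = 0.00075). At chr7:26481324-26488437 there were 18.4 and 12.9 at ZT18, against 126 and 160 at ZT0 (−3.18). At chr1:11862979-11866722 there were 10.8 and 7.78 at ZT18, against 65.2 and 82.9 at ZT0 (−2.97). All of these were strong, wide domains at ZT0 that shrank at ZT18, the chromosome 7 region to 1979 and 1103 bp of called length, against 6041 and 7114 bp at ZT0.

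The fifth, chr8:8759800-8763127, was weaker at ZT0 than the others, with 5.42 and 5.24 normalised tags at ZT18, against 30.3 and 43.4 at ZT0 (−2.81). At chr5:29222902-29227725 there were 20.6 and 15.7 at ZT18, against 119 and 133 at ZT0 (−2.80). At chr6:31025673-31029349 there were 20.5 and 12.7 at ZT18, against 109 and 123 at ZT0 (−2.79). The called length of the chromosome 6 region was 2960 and 1317 bp at ZT18, against 3469 and 3677 bp at ZT0, so that the ZT18 replicates differed in width.

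The remaining 3 were chr1:8949241-8953482 with 20.5 and 14.7 normalised tags at ZT18, against 113 and 127 at ZT0 (−2.76). In chr7:27787559-27793169 there were 12.8 and 13.4 at ZT18, against 52.4 and 120 at ZT0 (−2.74). In chr8:18247480-18253922 there were 15.6 and 9.47 at ZT18, against 55.7 and 103 at ZT0 (−2.62). In the last 2 the ZT0 libraries stood further apart from each other than in the other 8 falls, but both remained above the ZT18 libraries. The last one was not called once the called length entered the fit as an offset, where its log2 fold change was −0.23 and its adjusted p 0.87. The other 19 named regions stayed past the threshold with that offset, at log2 fold changes between 1.07 and 1.57 for those that rose and between −2.03 and −0.86 for those that fell.

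**Figure D2:**
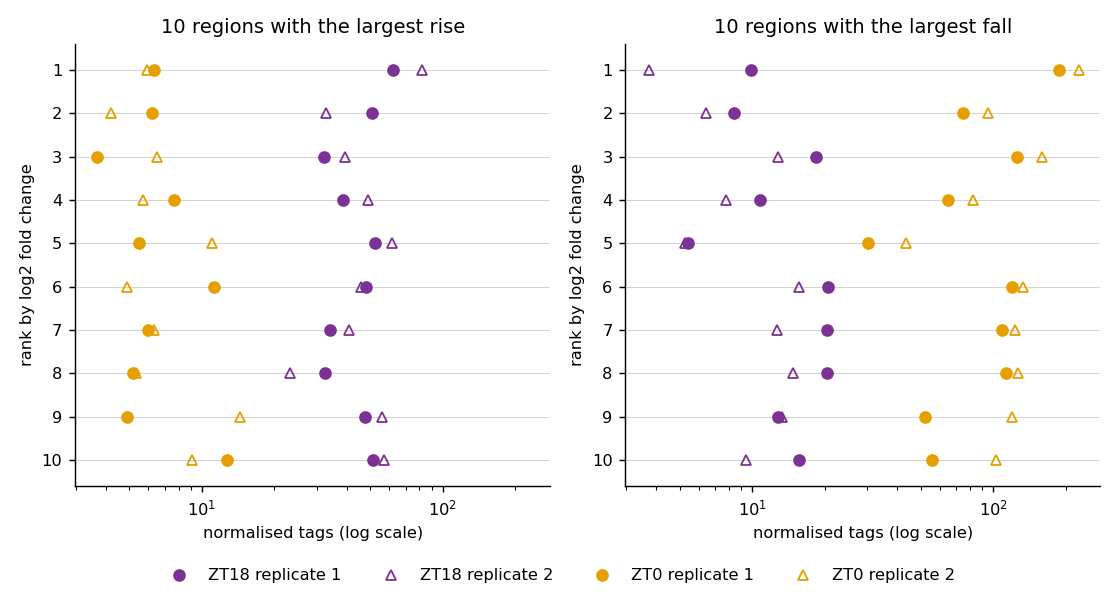
Normalised tags (x axis, log scale) in each of the 4 libraries for the 10 regions with the largest rise (left) and the 10 with the largest fall (right), ranked from 1 at the top by the edgeR log2 fold change. ZT18 libraries are purple and ZT0 libraries orange, circles are replicate 1 and triangles replicate 2, and in each of the 20 regions the ZT18 and ZT0 points do not overlap, as the choice of regions requires and as held for 52.1% of all regions tested.

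The change in tags went with a change in how far the called peaks reached. Since tags were summed over peaks called in each library, a wider call adds tags, and the 2 quantities are not independent. The median falling region had called lengths of 1537 and 1202 bp at ZT18, against 2197 and 2693.5 bp at ZT0. All 420 falling regions had a shorter summed called length at ZT18, with a median log2 ratio of −0.70. Of all 19651 regions tested, 13936 were shorter at ZT18 and 5688 longer. The median rising region had 1698 and 1418 bp at ZT18, against 1185 and 1347 bp at ZT0, and 708 of the 755 had a longer call (median log2 ratio 0.25). The remaining regions had a median ratio of −0.08.

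Tags per kilobase of called length also differed, and in rising regions by more than the length. The median log2 ratio of tags per kilobase was 0.73 in rising and −0.47 in falling regions, against 0.13 in the remaining regions. The median log2 ratio of called length was −0.70 in falling and −0.08 in the remaining regions. The remaining regions were thus shifted upwards in tags per kilobase and downwards in length. For this reason the medians of falling regions do not show which of these quantities changed more. At ZT18, 751 of 755 rising regions were denser and 379 of 420 falling regions were sparser. Over all 19651 regions tested, 14285 were denser and 5366 sparser. With called length as an offset in edgeR, 659 regions were called, 548 higher and 111 lower (83.2% higher, against 62.9% without the offset), and the median of all regions moved to 0.10 on the log2 scale. Of the rising regions 404 were still called and of the falling regions 106.

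**Figure D3:**
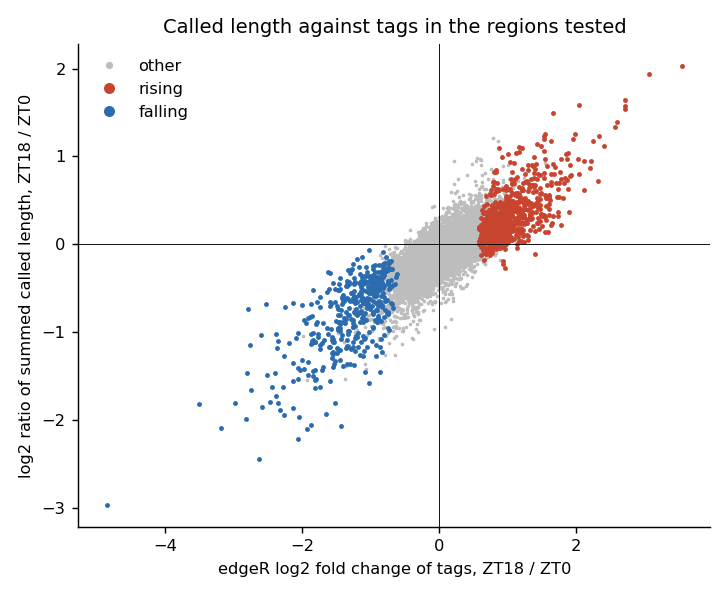
The x axis gives the edgeR log2 fold change of tags (ZT18 over ZT0) and the y axis the log2 ratio of called length summed over the 2 libraries of each time, for the 19651 regions tested. All 420 falling regions (blue) lie below the horizontal line at 0, and 708 of the 755 rising regions (red) lie above it. Of all regions tested, 13936 lie below it and 5688 above.

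Falling regions were also wider as merged regions, with a median of 2730 bp, against 1738 bp for rising and 1451 bp for the remaining regions. Summits stayed close to each other in the median region. Between ZT18 replicate 1 and ZT0 replicate 2, the 2 deep libraries, the median distance between summits was 47 bp in rising, 53 bp in falling and 31 bp in the remaining regions. Between the 2 ZT18 replicates the corresponding medians were 58, 62.5 and 41 bp, and between the 2 ZT0 replicates 59, 49 and 35 bp. In the median the summits of the 2 times were thus about as far apart as those of replicates. Single regions departed from this. Between the same 2 deep libraries the distance was 1974 bp at the largest rise, 641 bp at chr10:16083402-16086860 and 555 bp at chr8:25973040-25977691.

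The change also differed with the level of the mark, and so did the spread between the ZT18 replicates. When the tested regions were ranked by their mean level and split into 10 equal parts, the lowest part held 13 falling regions and the highest 80. Rising regions were most frequent in the third part (114) and numbered 55 in the highest. Over the same parts the median log2 difference between ZT18 replicate 2 and replicate 1 ran from −0.15 in the lowest to 0.19 in the highest, whereas that between the ZT0 replicates stayed between −0.03 and 0.02. The part of this drift of the shallow library in the counts by level was not tested.

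Rising and falling regions were found on all 12 chromosomes. The share of tested regions that rose ran from 2.84% on chromosome 11 to 4.81% on chromosome 6, and the share that fell from 1.39% on chromosome 10 to 2.54% on chromosome 8. Changed regions of one kind lay next to each other in places. Direct neighbours were taken among all merged regions, tested or not. Of the 420 falling regions, 62 (14.8%) had a falling region as a direct neighbour, at a median gap of 2803 bp, and of the remaining tested regions 489 of 18476 (2.65%) did. Of the 755 rising regions, 82 (10.9%) had a rising neighbour, at a median gap of 6704 bp, against 1008 (5.46%) of the remaining regions. A falling neighbour was found at 14 rising regions (1.85%), against the 2.65% of the remaining regions. Whether neighbouring regions belong to 1 gene was not tested. Runs were counted otherwise, among tested regions only, passing over untested regions between them. Their counts therefore do not match those of direct neighbours. Besides the run of 4 on chromosome 8 there were 6 runs of 3 and 32 pairs of falling regions, and 11 runs of 3 and 38 pairs of rising regions. One of the runs of 3 lay on chromosome 7 (chr7:26475823-26502458, 26636 bp) and held the third largest fall.

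The ZT6 and ZT12 libraries of the same series took no part in choosing these regions, which were chosen on their ZT18 and ZT0 levels, and give the level in between. Of the 755 rising regions 682 had a peak in all 8 libraries of the 4 times. Their median level was 12.5 and 12.8 normalised tags at ZT0, 21.3 and 20.5 at ZT6, 30.5 and 29.9 at ZT12, and 26.2 and 25.2 at ZT18. Their level was highest at ZT12, within the light period. Of the 420 falling regions 324 had a peak in all 8 libraries. Their median level was 40.9 and 51.4 at ZT0, 40.9 and 46.7 at ZT6, 15.7 and 15.7 at ZT12, and 19.9 and 18.3 at ZT18. The level of the falling regions at ZT6 was close to that of ZT0, and at ZT12 it was the lowest of the 4 times.

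**Figure D4:**
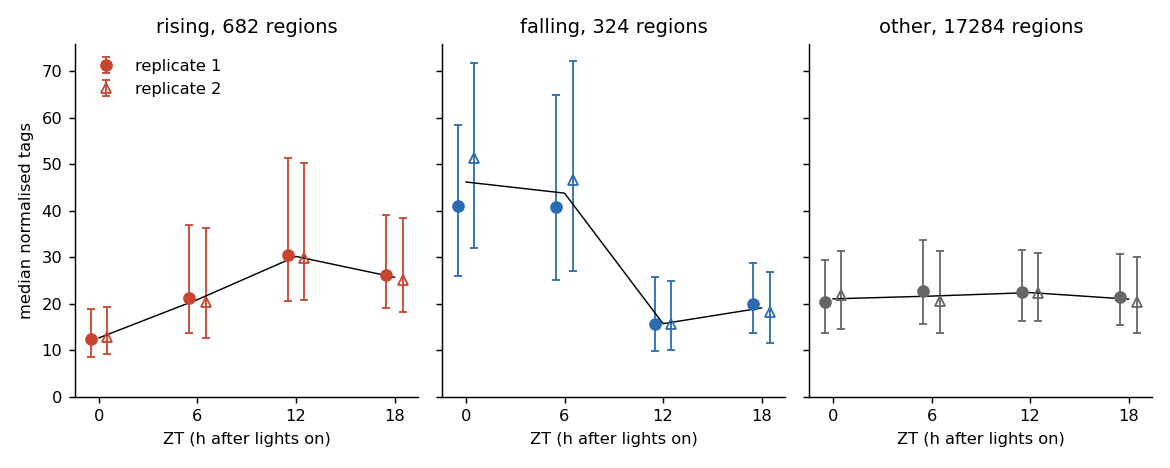
Median normalised tags at ZT0, ZT6, ZT12 and ZT18 (x axis, hours) in each library, for rising, falling and all remaining regions with a peak in all 8 libraries. Bars span the quartiles over regions, lines join the means of the 2 medians, and the falling regions go to 15.7 normalised tags in both libraries at ZT12 while the remaining regions stay between 20.3 and 22.8.

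A separate edgeR fit of ZT12 against ZT6, which shares no library with the comparison of ZT18 and ZT0, gave 1200 of 18290 regions higher at ZT12 (6.56%) and 1534 lower (8.39%). Of the 682 rising regions in this fit, 271 (39.7%) were higher at ZT12 and 11 were lower, with a median log2 fold change of 0.41. Of the 324 falling regions, 272 (84.0%) were lower at ZT12 and 1 was higher, with a median of −1.43. The median over all regions of that fit was 0.01. The share of falling regions lower at ZT12 was about 10 times the 8.39% of all regions. In both replicate pairs 303 of the 324 were lower, against 6288 of all 18290 regions.

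The course of single regions varied. For each region it was asked whether its level at ZT6 and at ZT12 was nearer to that of ZT18 or to that of ZT0, on the log2 scale. Among the 682 rising regions, 402 (58.9%) were nearer to the ZT18 level at both times, 239 (35.0%) at ZT12 only, and 35 at neither. Among the 324 falling regions, 223 (68.8%) were nearer to the ZT18 level at ZT12 only, 55 (17.0%) at both times and 44 (13.6%) at neither. Rising regions were thus mostly nearer to their ZT18 level from ZT6 on, and falling regions mostly from ZT12 on.

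The named regions show the range of these courses. The region of the largest rise, chr8:27537872-27541670, had no peak in either ZT6 library and 82.4 and 69.5 normalised tags at ZT12, about the level it had at ZT18. The region chr3:31694774-31697112 was at 5.16 and 4.32 at ZT6, as low as at ZT0, and at 43.6 and 51.3 at ZT12. In contrast, chr7:26053266-26056313 was already at 149 and 153 at ZT6 and at 163 and 148 at ZT12, well above the 47.5 and 56.0 of ZT18, so that for this region ZT18 was on the way down. At chr1:1214399-1216854 the level was 9.24 and 10.5 at ZT6, 21.7 and 24.7 at ZT12 and highest at ZT18.

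Among the falls, chr6:31025673-31029349 had more tags at ZT6 (177 and 190 normalised tags) than at ZT0 and 9.90 and 17.8 at ZT12. The region chr1:8949241-8953482 was already down to 20.7 and 21.6 at ZT6 and was at 7.29 and 8.24 at ZT12. The region of the largest fall, chr8:4607414-4614935, had no peak called at ZT6 in either library, so it has no level there. It held 14.5 and 15.9 at ZT12, far below its ZT0 level. The other 3 members of its run had peaks at ZT6, at different levels. At that time chr8:4595161-4597823 was at 15.8 and 16.1, near its ZT18 level, chr8:4602261-4605609 was at 37.1 and 45.4, and chr8:4630170-4631966 was at 34.5 and 38.3, above its ZT0 level of 20.3 and 28.9.

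Some regions had no peak at all at one of the intermediate times. Of the 420 falling regions, 36 (8.57%) had no peak in either ZT12 library, against 9 (2.14%) at ZT6. Of the 755 rising regions, 29 (3.84%) had none at ZT6 and 13 at ZT12. The remaining tested regions lacked a peak in 1.80% of cases at ZT6 and 0.731% at ZT12.

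The seedling libraries of the series, from leaves of 12-day-old plants harvested at 6 pm, were labelled with another age. The study's text calls the diurnal plants seedlings as well, so that the difference in age rests on the labels alone. H3K9ac peaks were found in both control seedling libraries at 668 (88.5%) of the rising, 300 (71.4%) of the falling and 91.6% of the remaining regions. Butyryllysine (Kbu) peaks were found in both libraries at 91.9%, 83.1% and 93.7% of these classes, and crotonyllysine (Kcr) peaks at 92.6%, 79.8% and 94.0%. Kbu and Kcr are acylations of histone lysines with longer chains than acetyl. Both of them without any H3K9ac peak were found at 25 falling regions (5.95%), against 1.72% of the remaining regions. The falling class had the lowest share for each of the 3 marks, and these differences were not tested.

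Darkness of 48 h was applied to seedlings in the same series. In an edgeR fit of these starved seedlings against control seedlings, 2996 of 16960 regions were higher (17.7%) and 3505 were lower (20.7%). Of 560 rising regions in that fit, 84 were higher and 243 (43.4%) were lower in starved seedlings, with a median log2 fold change of −0.25. Of 264 falling regions, 83 (31.4%) were higher and 64 (24.2%) lower, with a median of 0.09. In seedlings submerged for 6 h, set against the same control libraries, 2367 of 17430 regions were higher (13.6%) and 3112 were lower (17.9%), and of 620 rising regions 73 were higher and 218 (35.2%) were lower, with a median of −0.17. Of 279 falling regions 81 (29.0%) were higher and 58 (20.8%) lower there, with a median of 0.12. Rising regions of the leaf were thus more often lower than higher under both treatments. So were all regions of these fits, by a smaller margin. Of the rising regions 15% were higher in starved and 11.8% in submerged seedlings, against 17.7% and 13.6% of all regions. These differences between classes were not tested. Of the 10 named falls 5 were in the fit of starved seedlings, and 2 of these were higher there, 1 was lower and 2 did not pass the test. The largest fall in leaves, chr8:4607414-4614935, was higher in starved seedlings by 2.25 on the log2 scale (edgeR adjusted p = 0.00019), and chr7:26481324-26488437 by 1.71 (edgeR adjusted p = 5.8e-05).

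Peaks that were called in one time and in none of the libraries of the other form the third kind of change. The most frequent pattern among the 5826 regions that lacked a peak somewhere was a peak in ZT18 replicate 1 alone (1430 regions). The next was a peak in every library but the shallow ZT18 replicate 2 (1004 regions). The deep libraries had the most peaks found in no other library, 1430 in ZT18 replicate 1 and 571 in ZT0 replicate 2, against 143 in ZT18 replicate 2 and 139 in ZT0 replicate 1. A peak in both ZT18 libraries and neither ZT0 library was found in 479 regions (1.88% of the 25477), and the reverse in 299 (1.17%). No test was made of these counts, since a region without a peak has no tag value in that library. The smallest peak held 33 and 17 tags in the ZT18 libraries and 24 and 32 in the ZT0 libraries, so the absence of a peak is no absence of the mark.

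**Figure D5:**
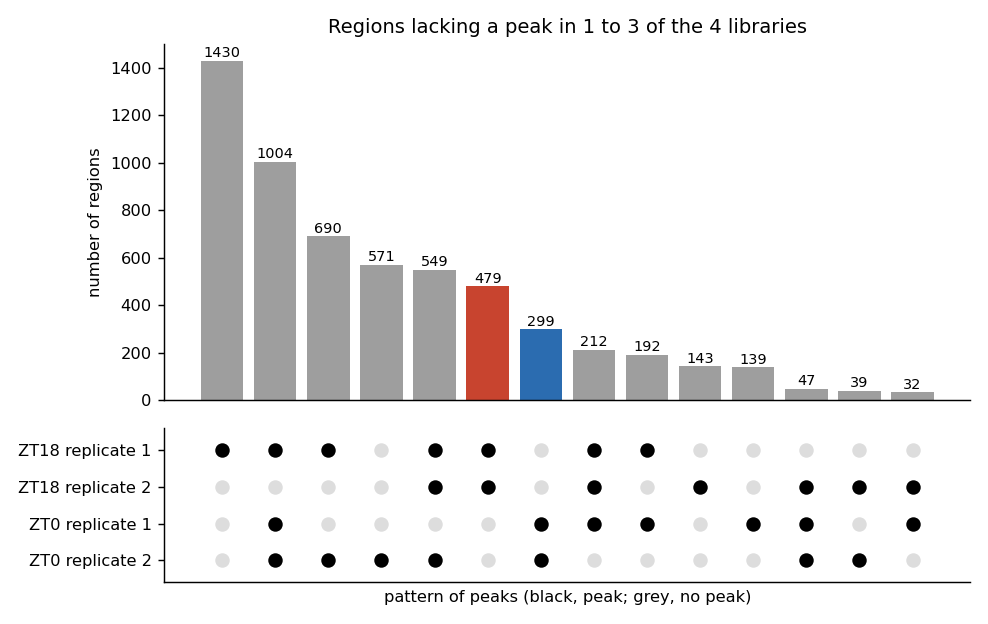
Number of merged regions (y axis) for each pattern of peaks that lacked at least 1 of the 4 libraries. Dots below each bar show which libraries held a peak (black) and which did not (grey). Red marks the 479 appearing regions and blue the 299 vanishing regions, both less frequent than the 1430 regions with a peak in ZT18 replicate 1 alone.

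Without the shallow ZT18 replicate 2, the count of appearing regions would be 1909 and of vanishing regions 346. Without ZT18 replicate 1 these counts were 622 and 1303, without ZT0 replicate 1 they were 691 and 870, and without ZT0 replicate 2 they were 1028 and 438. The excess of appearing over vanishing regions therefore turned round when either replicate 1 library was left out.

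Appearing and vanishing regions were weaker and narrower than the median tested region, which was 1467 bp wide. The median appearing region was 1134 bp wide and held 151 and 47 tags at ZT18, or 9.30 and 7.95 normalised tags, with an enrichment over the local background of 4.9 and 5.56. The median tested region was enriched 9.42- and 9.95-fold in the same libraries. Vanishing regions were 1298 bp wide in the median, with 73 and 168 tags at ZT0 (7.42 and 10.4 normalised tags) and an enrichment of 4.65 and 4.5, against 9.11 and 8.65 for the median tested region.

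At the other times, appearing regions more often had a peak at ZT12 than at ZT6, and vanishing regions more often at ZT6. Of the 479 appearing regions, 356 (74.3%) had a peak in both ZT12 libraries and 176 (36.7%) in both ZT6 libraries. Of the 299 vanishing regions, 55 (18.4%) had a peak in both ZT12 libraries and 135 (45.2%) in both ZT6 libraries. The shares over the 19651 regions tested were 97.7% at ZT12 and 93.9% at ZT6. The ZT12 lists were also longer, with 23496 and 24097 peaks, against 22853 and 21628 at ZT6. In control seedlings, 226 (47.2%) of the appearing and 53 (17.7%) of the vanishing regions held H3K9ac peaks in both libraries, against 91.1% of the regions tested. Kbu peaks were found in both seedling libraries at 313 (65.3%) of the appearing and 109 (36.5%) of the vanishing regions, against 93.4% of the regions tested.

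The most enriched appearing region, chr9:299072-300146, held 245 and 65 tags at ZT18 at an enrichment of 14.5 and 17.13, and no peak at ZT0. At ZT6 it had 45 tags in 1 library and no peak in the other, and at ZT12 it had 194 and 241 tags. The next, chr8:9832855-9834253, had 314 and 88 tags at ZT18, none listed at ZT0 or ZT6, and 212 and 262 at ZT12. Both had more tags at ZT12 than at ZT6, as the median rising region had.

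The third, chr2:23984139-23985443, had 243 and 87 tags at ZT18, and a peak in 1 of the ZT6 libraries (177 tags). The fourth, chr1:11411955-11413104, had 173 and 59 tags at ZT18 and peaks at ZT6 (91 and 139) and ZT12 (187 and 260). The fifth, chr10:12045845-12046628, was the smallest at 784 bp, with 96 and 35 tags at ZT18. All of these 5 held Kbu peaks in both control seedling libraries, and 4 held H3K9ac peaks there. The exception was the region on chromosome 10.

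The most enriched vanishing region, chr3:9767490-9768947, held 146 and 266 tags at ZT0 at an enrichment of 12.71 and 13.66, and no peak at ZT18. It had 378 and 641 tags at ZT6 and 331 and 354 at ZT12, so that only ZT18 lacked it. The next, chr1:17151605-17153057, held 349 and 589 tags at ZT0, 542 and 813 at ZT6 and 194 and 282 at ZT12. The third, chr9:20648346-20650186, held 338 and 610 tags at ZT0 and 111 and 157 at ZT12.

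The fourth, chr5:15598128-15599116, was less regular. It held 70 and 247 tags at ZT0, no peak at ZT6, and 155 tags in 1 of the ZT12 libraries. The fifth, chr3:15467568-15469854, was the strongest by tags, with 582 and 1001 at ZT0, or 59.2 and 61.7 normalised tags. It held 83.0 and 98.0 normalised tags at ZT6 and 31.8 and 32.5 at ZT12. None of the 10 named appearing and vanishing regions overlapped a peak of the input library, which was labelled as 12 days old.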

How the data were processed

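Peak lists of H3K9ac ChIP-seq were used for the 4 leaf libraries at ZT18 and ZT0 (2 each). Per the study's methods, reads were trimmed with Trimmomatic, aligned to MSU7.0 with Bowtie2 2.2.5 and cleared of PCR duplicates with SAMtools 0.1.19. Per the file headers, peaks were called per library with MACS 1.4.2 at a p cutoff of 1e-05, with no control library, a band width of 300 bp and at most 1 tag per position. The authors deposited unnormalized tag counts for each peak. The deposited score is the MACS p-value on a negative log10 scale, times 10 (50.01 or more in these lists). The deposited fold enrichment is a ratio to the local background of the same library. Tags lying outside called peaks are not part of these values.

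Peaks were merged at 1 bp of overlap and their tags summed per region and library. Regions with a peak in all 4 libraries were tested with edgeR 4.0.16 (R 4.3.3; TMM, quasi-likelihood, Benjamini-Hochberg limit 0.05), and the 1.5-fold rule used normalised tags, that is tags per 1000000 tags kept by MACS, a total given in each header. Samples were grouped by their labels. With 2 libraries against 2, an exact permutation test of a single value cannot go below p = 0.33, so none is given. The script was tested on simulated data. Named are the 10 largest fold changes in each direction among regions passing both criteria, and the 5 appearing and 5 vanishing regions of highest mean enrichment. The tests and lists were chosen with earlier results of these data known, and the fits of ZT12 against ZT6 and of starved and submerged seedlings were added after seeing the data, with the same test. Gene lists drawn up for this comparison were not used, since no annotation of MSU7.0 was at hand. Alternatives were DESeq2 1.42.0 (size factors and Wald test), other library sizes, a replicate block, filters on tags (100) and score (100), the called length as an offset, regions with peaks in fewer libraries, all 8 diurnal libraries, and each library left out.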

Additional observations from a re-analysis of the deposited data

How the results depend on the processing

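The edgeR count of 1687 regions (1061 higher, 626 lower at ZT18) stayed within 1.5 times of itself with DESeq2 size factors, kept tags as library sizes, at least 100 tags in every library, a score of at least 100, all 8 diurnal libraries and the DESeq2 Wald test (678 higher, 524 lower). It was 3 with aligned reads as library sizes (185 at an unadjusted p under 0.05), which still held the repeats removed from the tags. It was 311 of 23194 with regions holding a peak in at least 2 libraries (184 higher, 127 lower), where a missing peak counts as 0 tags. With called length as an offset it was 659 (548 higher, 111 lower). Leaving out one library each gave 1042 to 1691. The replicate block gave 1191 (709 higher, 482 lower), with 611 rising and 402 falling regions called and all 20 named regions still past the threshold. The deviations of same-numbered libraries correlated at −0.10. With 2 libraries of each time, this cannot tell whether same-numbered libraries shared a plant or day. The 1.5-fold rule gave 1380 regions, 218 with aligned reads as the denominator (62 higher, 156 lower) and 603 with tags per kb of called length (498 higher, 105 lower). With 1 replicate pair left out it gave 3056 to 3527 regions, of which 2513 were higher and 543 lower in the first pair alone, and 1658 higher and 1869 lower in the second alone. Appearing regions (479) numbered 380 at a score of at least 100 and 508 when peaks had to cover 50% of the region, and vanishing regions (299) numbered 225 and 436. With one library left out, appearing regions ranged from 622 to 1909 and the vanishing regions from 346 to 1303. Where a count moved, the cause was not tested. Depth limits the precision of each region: the shallow ZT18 replicate 2 held a median of 119 tags in the tested regions, against 345 in ZT18 replicate 1.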
